A study of Mus musculus with 912 samples.

Results

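These data describe 130 single nuclei of dentate granule neurons from 6 mice that entered the same unfamiliar environment on 2 occasions. They were split by their level of Sorcs3 mRNA. Nuclei of the second deposited set were included if they carried the A>A ARC+FOS+ label and had at least 4000 genes above 1 on the log2(TPM+1) scale, where TPM is transcript abundance scaled to gene length and library size. Of 144 sorted nuclei, 130 passed, among 912 nuclei in the whole series. Sorcs3 was above 1 in 65 of them and at or below 1 in the other 65. The sets are called with (positive) and without (negative) Sorcs3 below, although 30 negative nuclei held a Sorcs3 count. The tests between these 2 sets were made within mouse, and Sorcs3 was left out of the readout.

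The 6 mice were female C57BL6, 8.85 or 9 weeks old. Each spent 15 min in context A, 4 h in the home cage and 15 min in context A again, and nuclei were taken 1 h later. The nuclei had been sorted for PROX1 and CTIP2, which together mark granule neurons, and for ARC and FOS protein. The other groups used below, also female C57BL6, were A>A ARC+FOS− nuclei (6 mice), ARC+FOS− nuclei taken 4 h or 5 h after a single exposure (6 mice), and ARC+FOS+ nuclei of mice whose second context was a different one (A>C, 2 mice). FOS+ nuclei taken 1 h after a single exposure (1 mouse) and home cage FOS− nuclei come from the first deposited set, which was tabulated separately, so their levels are set beside the others as a description. By the labels these mice were 7.75 to 8.875 weeks old in the A>A ARC+FOS− group and the home cage group, 7.75 to 9 weeks at 4 h, 8.7 or 8.85 weeks at 5 h, 8.7 or 9 weeks in A>C and 8.7 weeks at 1 h. Some nuclei with 1 mouse number carried different ages.

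Granule neurons of the dentate gyrus fire sparsely, and a brief visit to a new place activates only a small subset of them. Activated neurons first transcribe immediate early genes such as Fos and Egr1, whose products are lost within hours, and then a slower set of genes for synaptic, membrane and secreted proteins. Sorcs3 encodes a sorting receptor of the VPS10P (sortilin) family that acts at the postsynaptic side of glutamatergic synapses. ARC protein outlasts FOS protein in these neurons, so an ARC+FOS+ nucleus has been active recently but its staining does not tell whether it was active at the first visit too.

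The 2 sets of nuclei were chosen by their Sorcs3 level, so its values are given only as a description. It had no read count in 35 nuclei, and 1 to 4 counts in 30 more that stayed at or below 1. Another 11 nuclei lay above 1 and up to 4, and 54 lay above 4, with a median of 6.69 among the 65 positive nuclei. The nuclei nearest the threshold had 0.740 and 0.791 below it and 1.10 and 1.14 above it. The distribution was therefore mostly one of near-absence or abundance, and few nuclei sat at the boundary. The positive share was 59.1%, 66.7%, 36.8%, 13.0%, 68.4% and 56.5% in mice 15, 16, 24, 25, 26 and 27, so mouse 25 contributed only 3 positive nuclei.

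**Figure D1:**
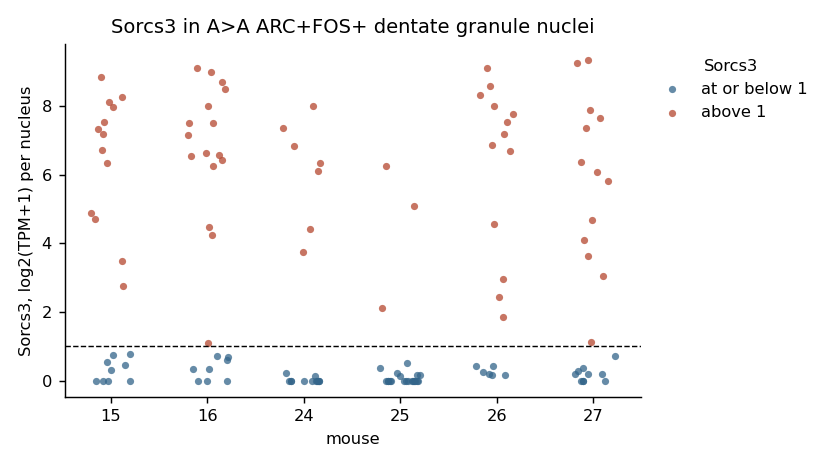
Sorcs3 level, log2(TPM+1), in each of the 130 A>A ARC+FOS+ nuclei (points) by mouse (x axis), with the threshold of 1 as a dashed line. Most nuclei sit near 0 or above 4, and mouse 25 has 3 nuclei above the line.

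The share of nuclei with Sorcs3 above 1 differed widely between the groups of granule nuclei. It was above 1 in 84.5% of 129 A>A ARC+FOS− nuclei, in 83.8% of 68 nuclei at 4 h and in 84.7% of 59 nuclei at 5 h. It was above 1 in 12.5% of 48 A>C ARC+FOS+ nuclei and in 11.5% of 26 home cage nuclei. None of 26 FOS+ nuclei at 1 h was above 1, which allows a share of up to 11.5%. The A>A ARC+FOS+ nuclei, at 50%, lay between these groups, with 6 mice behind the A>A ARC+FOS− share, 2 behind that at 4 h, 4 behind that at 5 h and in the home cage, and 1 or 2 behind the 1 h and A>C shares. Shares from single groups carry counting error and the spread between mice.

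Depth and RNA quality were compared before any gene. Total counts per nucleus ran from 187715 to 4424338, with a median of 1667494.5. Positive nuclei had 109 more genes above 1 (mean per mouse 5369 against 5260, Sorcs3 not counted), higher in 4 of 6 mice, a difference smaller than its spread (SD 295; two-sided exact permutation test within mouse, p = 0.4375, adjusted p = 0.5). Their mean total count was lower by 147158 reads (1519345 against 1666503), in 5 of 6 mice (exact permutation p = 0.125, adjusted p = 0.25). The share of reads aligned was 31.4% in positive and 31.8% in negative nuclei (exact permutation p = 0.5). With 6 pairs the test cannot give a p below 0.03125. A higher depth of the positive nuclei was thus not measured, while 2 mice with the earliest date label had shallower nuclei than the other 4.

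Granule cell markers were present in both sets. Prox1 was above 1 in 55 positive and 59 negative nuclei, and the summed level of 18 granule markers was 2660 to 3569 CPM (counts scaled to library size) per mouse in positive and 2509 to 4105 CPM in negative nuclei, higher with Sorcs3 in 2 of 6 mice. Calb1 was above 1 in 17 and 37 nuclei and Bcl11b, the CTIP2 gene, in 12 and 19. Glis3, in 30 and 20, and Trpc6, in 37 and 23, were among those that went the other way. Of 16 granule markers tested by edgeR, 7 had a positive and 9 a negative sign. Markers of immature granule neurons (10 genes) summed to 276 to 971 CPM with Sorcs3 and 167 to 517 CPM without, higher with Sorcs3 in 5 of 6 mice, with Tac2 at 0. Sox11 differed most, with medians of 369 and 132 CPM, and was above 1 in 47 and 33 nuclei. Neurod1 was above 1 in 37 and 30 nuclei and Draxin in 43 and 42. Neurod2, in 33 and 47, and Igfbpl1, in 0 and 3, went the other way. The 12 CA1 and subiculum markers summed to 157 to 361 CPM and 126 to 448 CPM, higher with Sorcs3 in 3 of 6 mice, with Nts at 0. Fibcd1, Mpped1 and Wfs1 were above 1 in 1, 3 and 3 positive and 7, 8 and 9 negative nuclei. Dcn, Etv1, Pou3f1, Man1a and Sv2b went the other way, in 7, 8, 2, 2 and 2 positive and 1, 5, 0, 0 and 0 negative nuclei. Sums of the CA3, oligodendrocyte and microglial or vascular markers were higher with Sorcs3 in 4, 2 and 2 of 6 mice. The 16 GABAergic markers in the tables summed to 741 to 2247 CPM with Sorcs3 and 433 to 1733 CPM without. Their sum was higher with Sorcs3 in 3 of 6 mice, with Dlx2 at 0 everywhere. The 11 astrocyte markers summed to 53.9 to 847 CPM (median 139) with Sorcs3 and 52.7 to 796 CPM (median 585) without, higher with Sorcs3 in 2 of 6 mice, with Slco1c1 at 0. The part of these markers in the results below was not tested. None of the 8 marker lists had a member past the adjusted threshold in the edgeR fit described next, and Ahcyl2, a granule marker, was the single member past it in the limma fit.

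A pair of fits asked which other genes differed with Sorcs3. In both, nuclei with Sorcs3 carried less Baiap2, which encodes IRSp53, a scaffold that links membrane and actin in dendritic spines, and no gene rose in the stricter one. The first fit, edgeR's quasi-likelihood test on expected counts summed per mouse and Sorcs3 state with mouse as a block, called 0 genes higher and 1 lower of 11842, or 0.00844% (Benjamini-Hochberg adjusted p under 0.05). At an unadjusted p under 0.05 it had 801 genes (6.76%), 419 higher (3.54%) and 382 lower (3.23%). The second fit, limma on the mean log2(TPM+1) per mouse and state, called 58 higher (0.497%) and 63 lower (0.54%) of 11671, together 1.04%, and had 13% at an unadjusted p under 0.05. DESeq2 on the same sums called 722 higher (6.1%) and 646 lower (5.46%). All 121 limma genes had the same sign in edgeR, 102 of them with an unadjusted edgeR p under 0.05. Over all genes, 3.37% were higher and 3.24% lower in CPM in all 6 mice, and the mouse means of the 2 sets did not overlap in 0.72% (higher) and 0.651% (lower).

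The number of limma calls depended on single mice. It was 0 without mouse 15, 6 without mouse 16 and 8 without mouse 27, and 62, 92 and 60 without mice 24, 25 and 26. The edgeR call of Baiap2 stood without mouse 26 and was lost without each of the other 5 mice, lower with Sorcs3 each time. Below, a gene is said to be higher or lower only where the named fit passed its adjusted threshold, and edgeR log2 fold changes and limma differences of mean log2(TPM+1) are named as such. In single-nucleus sums, fewer nuclei transcribing a gene and less RNA per nucleus cannot be told apart, so the number of nuclei above 1 is given beside the level.

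**Figure D2:**
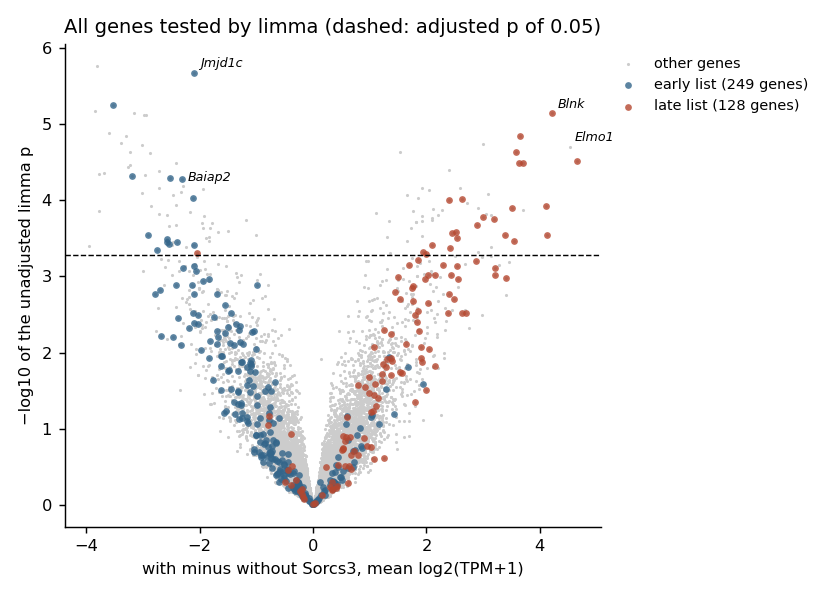
Each gene tested by limma, with the difference of its mean log2(TPM+1) between nuclei with and without Sorcs3 on the x axis and −log10 of the unadjusted p on the y axis. Colored points are the late and early lists, and the dashed line marks an adjusted p of 0.05. Most late list genes lie to the right of 0 and most early list genes to the left.

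Baiap2 (chromosome 11, 119942763 to 120006782, plus strand, GRCm38) was expressed in nearly all nuclei of both sets. Its mean log2(TPM+1) per mouse was 6.77, 8.70 and 9.66 (lowest, median and highest of 6 mice) with Sorcs3 and 10.5, 10.9 and 11.5 without. The mouse values of the sets did not overlap, and the gene was lower with Sorcs3 in 6 of 6 mice. The edgeR log2 fold change was −1.69 (SE 0.13, adjusted p = 0.0328) and the limma difference −2.30 (SE 0.34, adjusted p = 0.0216). It was above 1 in 64 and 65 nuclei, so the difference was one of level and not of detection. Levels of Baiap2 in the reference groups were high in FOS+ nuclei, at 11.6 in FOS+ nuclei at 1 h (1 mouse) and 10.9 ± 0.52 in A>C ARC+FOS+ nuclei (SD, n = 2), and 7.11 ± 1.54 at 4 h and 5 h (SD, n = 6).

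The promoter windows of 3 genes are shown because the first belongs to the called gene, and the others to Sorcs3 and to Scg2, a gene near the top of the other direction. Scg2 and Sorcs3 were added after their values were seen. Each window runs from 250 bases before to 50 bases after the annotated start (RefSeq, GRCm38.p6), 5′ to 3′ on the gene's strand, and capitals mark a cAMP response element (CRE, TGACGTCA, searched on both strands).
Baiap2, chr11:119942842-119943141, plus strand: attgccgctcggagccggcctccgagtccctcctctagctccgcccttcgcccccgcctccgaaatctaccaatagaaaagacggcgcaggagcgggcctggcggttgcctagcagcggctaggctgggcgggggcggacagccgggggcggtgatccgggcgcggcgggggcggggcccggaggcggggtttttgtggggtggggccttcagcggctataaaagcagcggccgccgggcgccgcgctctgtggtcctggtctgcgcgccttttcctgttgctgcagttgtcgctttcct
Sorcs3, chr19:48205775-48206074, plus strand: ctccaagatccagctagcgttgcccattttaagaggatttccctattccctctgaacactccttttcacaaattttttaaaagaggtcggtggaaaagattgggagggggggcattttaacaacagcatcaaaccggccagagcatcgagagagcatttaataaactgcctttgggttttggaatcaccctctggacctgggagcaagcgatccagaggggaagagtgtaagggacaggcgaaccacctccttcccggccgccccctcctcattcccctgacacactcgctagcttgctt
Scg2, chr1:79439977-79440276, minus strand: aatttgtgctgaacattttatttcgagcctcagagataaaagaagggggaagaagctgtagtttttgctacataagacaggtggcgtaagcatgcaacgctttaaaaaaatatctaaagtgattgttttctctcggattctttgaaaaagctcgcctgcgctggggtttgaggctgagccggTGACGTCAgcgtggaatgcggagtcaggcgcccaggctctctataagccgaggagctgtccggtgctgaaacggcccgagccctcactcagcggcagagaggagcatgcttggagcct

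The Scg2 window held 1 CRE, starting at base 183, and neither the Baiap2 nor the Sorcs3 window held a CRE, an AP-1 site (TGANTCA), an Egr site (GCGTGGGCG) or a Mef2 site. A match is a string of letters and no measured binding. For the shares, a gene was counted once if any of its windows held a match. A CRE was found for 2.03% of 27025 genes with a window and for 13.4% of 82 sustained list genes. It was found for 6.59% of 182 early list genes and 3.19% of 94 late list genes.

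After Baiap2, the genes with the smallest edgeR p and the same direction in all 6 mice did not pass the adjusted edgeR threshold, and most of them passed in limma. Jmjd1c, a JmjC-domain protein of the histone demethylase family, had 7.57, 7.68 and 8.27 (lowest, median, highest mouse) with Sorcs3 and 9.61, 9.93 and 10.1 without. Its mouse values did not overlap (limma difference −2.10, SE 0.21, adjusted p = 0.0111; edgeR adjusted p = 0.0744). The 6 mice differed little from each other in this gene, with differences between −2.29 and −1.83.

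The remaining genes on that side were a mixed group. Skil, a corepressor of Smad signaling, had a median of 2.5 with Sorcs3 and 5.80 without and was above 1 in 30 and 62 nuclei (limma difference −3.53, adjusted p = 0.0111). Tmem59l, a brain-enriched membrane protein, had medians of 4.46 and 8.19 (limma difference −3.85, adjusted p = 0.0111), and Mkl2, a coactivator of serum response factor, 5.50 and 8.31 (limma difference −2.87, adjusted p = 0.0148). Each of these 3 genes had separate mouse ranges, an edgeR adjusted p of 0.228 and the lower level with Sorcs3 in every mouse. The zinc finger gene Zfp948 fell too in limma (−3.20, adjusted p = 0.0178), with overlapping ranges. Cpt1c, the brain form of carnitine palmitoyltransferase, had medians of 1.70 and 4.18 and passed in neither fit (limma adjusted p = 0.239).

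On the side that was higher with Sorcs3, Scg2 encodes secretogranin II, a granin of dense-core vesicles and the precursor of secretoneurin. It had 8.95, 10.2 and 11.3 with Sorcs3 and 5.88, 7.41 and 7.78 without, so that the lowest positive mouse was above the highest negative one (limma difference 3.00, SE 0.38, adjusted p = 0.0148; edgeR 1.94, adjusted p = 0.123). Ccnt2, cyclin T2 of the transcription elongation factor P-TEFb, had 10.4, 10.7 and 11.4 with Sorcs3 and 8.41, 9.37 and 9.96 without (limma difference 1.53, adjusted p = 0.0148). Elmo1, which works with DOCK proteins to activate Rac, had medians of 7.32 and 2.77 and was above 1 in 56 and 39 nuclei (limma difference 4.52, adjusted p = 0.0148).

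Megf11, a transmembrane protein with EGF-like repeats, had medians of 4.46 and 0.84 and was above 1 in 45 and 18 nuclei (limma difference 3.39, adjusted p = 0.0363). R3hdm1 (medians 11.1 and 8.88; limma adjusted p = 0.0216) and Brinp1 (medians 9.98 and 8.75; limma adjusted p = 0.0228) were present in almost every nucleus, with overlapping mouse ranges. Syt4, a synaptotagmin of dense-core vesicles, did not pass in either fit (limma difference 1.34, adjusted p = 0.219). Prkag1, a regulatory subunit of AMP-activated protein kinase, was above 1 in 12 positive and 0 of 65 negative nuclei, which allows a share of up to 4.62% there, and its summed counts were 3574 against 2. It was not tested by limma and did not pass in edgeR (adjusted p = 0.123), and 1 mouse supplied 2137 of those counts.

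Slower genes were among those higher with Sorcs3. The study's late list holds 129 genes that were elevated at 4 h and 5 h but not at 1 h. It was drawn from other nuclei of this series, and Sorcs3 belonged to it and was removed, so the list is no independent evidence of its direction. Of 128 late genes tested by limma, 23 were higher and 1 lower, beside a background of 0.497% of all genes higher. In edgeR none of 126 passed, 50 had an unadjusted p under 0.05 and a positive sign (3.54% of all genes), and none a negative one. In limma 80 late genes were positive at that level (6.63% of all genes) and 1 negative. The median limma difference was 1.38 over the list and 0.02 over all genes. The number of late genes called higher was 0 without mouse 15 and without mouse 16, 9 without mouse 24, 19 without mouse 25, 11 without mouse 26 and 2 without mouse 27, and the list median stayed between 1.33 and 1.46 with any mouse left out.

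The mean over the late list gave the same picture in each mouse. It was 4.25, 4.76 and 5.14 (lowest, median, highest mouse) with Sorcs3 and 2.88, 3.25 and 3.65 without. The ranges did not overlap, and the difference was 1.48 ± 0.28 (SD, n = 6), positive in 6 of 6 mice and therefore in both mice of each of the 3 date labels. The negative nuclei lay near the FOS+ nuclei at 1 h (3.02, 1 mouse) and the A>C ARC+FOS+ nuclei (3.56 ± 0.02, n = 2), and the positive nuclei near the 4 h and 5 h nuclei (4.43 ± 0.82, n = 6).

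**Figure D3:**
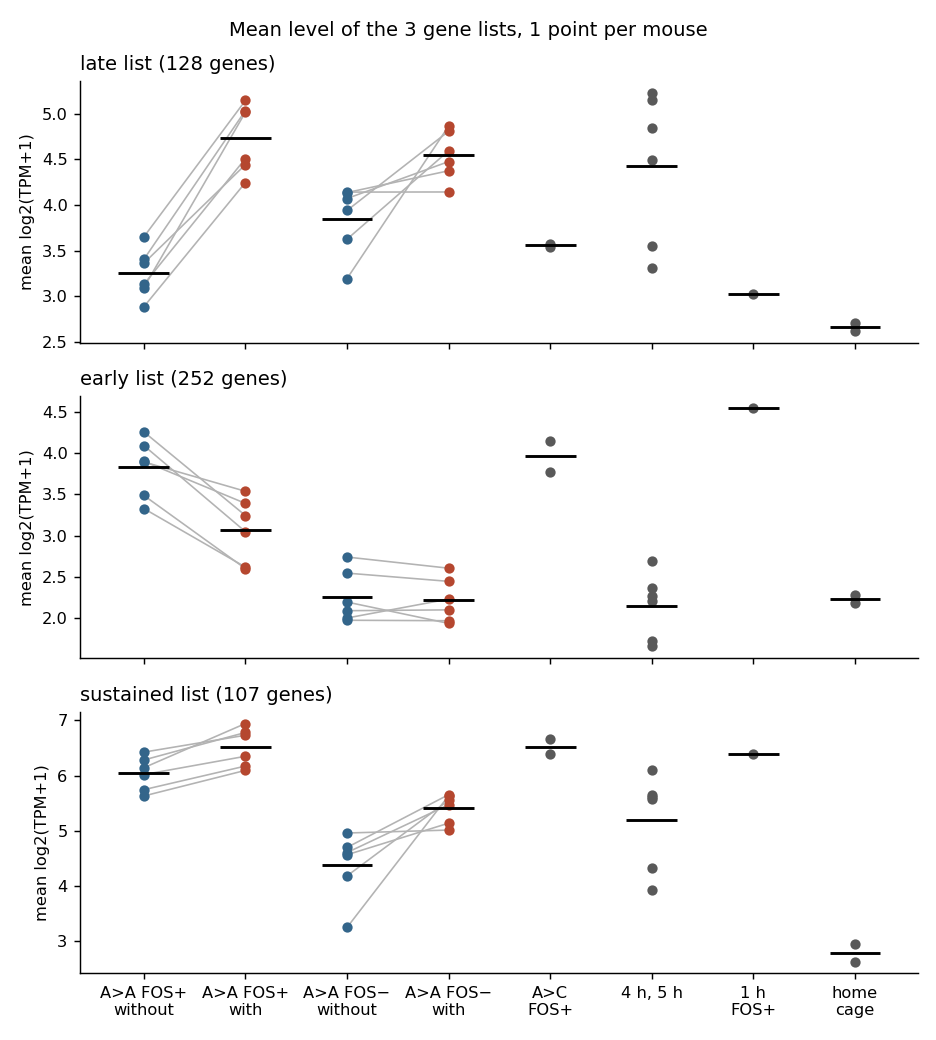
Mean log2(TPM+1) over the late, sustained and early gene lists (panels), 1 point per mouse, for A>A nuclei with and without Sorcs3 and for the other granule groups (x axis). In FOS+ nuclei the late mean is higher with Sorcs3 in 6 of 6 mice and the early mean is lower in 6 of 6.

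Named late genes spanned adhesion, receptors, matrix and signaling. Blnk, an adaptor known from B cell receptor signaling, had 4.29, 6.08 and 7.31 with Sorcs3 and 0.61, 1.26 and 3.20 without. It was above 1 in 59 positive and 27 negative nuclei, and the mouse ranges did not overlap (limma difference 4.21, SE 0.48, adjusted p = 0.0111; edgeR adjusted p = 0.386). Bhlhe41, a basic helix-loop-helix repressor of the circadian clock, had medians of 6.98 and 3.07 (limma difference 3.58, adjusted p = 0.0148). It was the only one of 13 circadian genes tested that limma called, beside 0.497% of all genes called higher.

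Some of the named late genes encode synaptic proteins. Nptxr, the neuronal pentraxin receptor, had medians of 7.53 and 4.6 with separate ranges (limma difference 2.40, adjusted p = 0.0244). Slitrk1, a synaptic adhesion protein, had medians of 2.82 and 0.54 and was above 1 in 30 and 12 nuclei (limma difference 2.09, adjusted p = 0.0413). Grm7, a presynaptic metabotropic glutamate receptor, had medians of 8.21 and 4.78 (limma difference 2.42, adjusted p = 0.0427). In limma 1 of 21 glutamate receptor genes tested was called higher, beside 0.497% of all genes. Picked after their values were seen, Rgs7, a regulator of G protein signaling (above 1 in 53 and 18 nuclei; limma difference 4.65, adjusted p = 0.0166), and the presynaptic organizer Nrxn3 (58 and 36 nuclei; 3.64, adjusted p = 0.0166) were also higher in every mouse. Numbl, a Numb family adaptor, was the late gene that fell (limma difference −2.05, adjusted p = 0.0478).

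Genes of inhibitory synapses and of the extracellular matrix were partly in the late list. Gabrb2, a GABA-A receptor subunit, had 4.38, 6.80 and 7.69 with Sorcs3 and 1.79, 3.11 and 5.75 without (limma difference 3.00, adjusted p = 0.0284), with ranges that overlapped. Gabra4 had medians of 7.37 and 5.95 and did not pass (limma difference 1.85, adjusted p = 0.115). Pxdn, a peroxidase of the basement membrane, had medians of 5.45 and 1.69 (limma adjusted p = 0.0287). Ptprz1, a receptor phosphatase that binds perineuronal net components, had 6.57 and 3.62 (limma adjusted p = 0.0372). Of 10 matrix genes tested, these 2 were higher in limma, beside 0.497% of all genes. Acan, the core proteoglycan of perineuronal nets, had medians of 4.29 and 1.68 without overlap and missed the threshold (limma difference 2.44, adjusted p = 0.0644), and Ncan had 7.38 and 5.93 (adjusted p = 0.152).

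Several genes that the study named for late or reactivated nuclei did not pass. Dgat2l6 had a limma difference of 3.21 (adjusted p = 0.0644) and was above 1 in 40 positive and 9 negative nuclei. Dlg2, a postsynaptic scaffold, differed by 1.07 (adjusted p = 0.191), Entpd4 by 0.36 (adjusted p = 0.827) and Hes7 by 0.60 (adjusted p = 0.471). The channel genes Kcnc4 (−0.44) and Kcna4 (0.12) lay near 0. Tnik, a kinase of postsynaptic densities, was lower with Sorcs3, with medians of 7.09 and 9.19 (limma difference −2.43, adjusted p = 0.0303). Over these 17 genes, limma called 4 higher and 1 lower, beside 0.497% and 0.54% of all genes, and the set was named partly from these same nuclei.

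The sustained list, 107 genes raised at 1 h and still raised at 4 h and 5 h, moved less. Like the late list, it was drawn from other nuclei of this series, so its direction is no independent evidence. In limma 7 were higher and 1 lower, beside 0.497% and 0.54% of all genes, with a list median of 0.28, and its mean differed by 0.47 ± 0.18 (SD, n = 6), positive in 6 of 6 mice. The higher genes included Nptx2, a secreted pentraxin that clusters AMPA receptors, with 7.15, 8.17 and 9.67 with Sorcs3 and 5.30, 6.30 and 7.24 without (limma difference 1.85, adjusted p = 0.0236). Scg2, Ccnt2, Elmo1, R3hdm1 and Brinp1, described above, were 5 more of these 7. Sgk1, a serum- and glucocorticoid-regulated kinase, was the gene that fell (medians 6.42 and 8.36; limma difference −2.55, adjusted p = 0.0312), and it was chosen after its values were seen.

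Arc, Inhba, Bdnf and Synpo, other sustained genes, passed neither in edgeR nor in limma, while DESeq2 called Arc lower (adjusted p = 0.00104) and Bdnf higher (adjusted p = 0.0136). Arc, the gene of the sorted protein, had 8.37, 9.10 and 9.50 with Sorcs3 and 8.73, 9.31 and 9.99 without (limma difference −0.31, SE 0.21, adjusted p = 0.605; edgeR −0.66, adjusted p = 0.285). Inhba, the activin A subunit, had medians of 10.1 and 9.53 (limma difference 0.88, adjusted p = 0.248), and Bdnf, a neurotrophin, 9.27 and 8.57 (0.59, adjusted p = 0.377). Synpo, an actin-associated protein of the spine apparatus, had 10.4 and 10.3 (−0.11, adjusted p = 0.884). These 4 genes were high in both sets and their mouse ranges overlapped. Gadd45b, a growth arrest gene, had 6.14 and 7.35 (−1.15, adjusted p = 0.469).

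The early list, 252 genes raised at 1 h and back at baseline by 4 h, went the other way. It was drawn from the same nuclei as the late and sustained lists, so its direction is no independent evidence either. Of 249 tested by limma, 0 were higher and 13 lower, beside a background of 0.54% of all genes lower, and 89 had an unadjusted p under 0.05 and a negative sign (6.34% of all genes) against 4 with a positive one. In edgeR none of 247 passed. At an unadjusted p under 0.05 edgeR had 45 negative and 4 positive, beside 3.23% and 3.54% of all genes. DESeq2 called 54 lower and 5 higher, beside 5.46% and 6.1% of all genes. The list median was −0.75 in limma. Without mouse 15 limma called 0 early genes, and without mice 16, 24, 25, 26 and 27 it called 2, 8, 7, 5 and 2 lower.

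Per mouse, the early mean was 2.60, 3.15 and 3.54 with Sorcs3 and 3.33, 3.90 and 4.26 without. The difference was −0.75 ± 0.28 (SD, n = 6), negative in all 6 mice. Both sets remained above the 4 h and 5 h nuclei (2.15 ± 0.40, n = 6) and the A>A ARC+FOS− nuclei with Sorcs3 (2.22 ± 0.27, n = 6). FOS+ nuclei at 1 h had 4.54 (1 mouse). The negative nuclei were close to the A>C ARC+FOS+ nuclei, at 3.96 ± 0.26 (n = 2).

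The classical immediate early genes contributed few calls, and most were sparsely detected. Fos was above 1 in 15 positive and 24 negative nuclei, with medians of 0.77 and 2.30 (limma difference −0.47, SE 0.65, adjusted p = 0.845). Fosb was above 1 in 14 and 24 nuclei (−0.94, adjusted p = 0.438) and Egr1 in 17 and 29 (−0.68, adjusted p = 0.679). FOS protein was present in all these nuclei by sorting, while the mRNA was detected in a minority. Nr4a2, an orphan nuclear receptor, had medians of 3.66 and 4.75 (−0.73, adjusted p = 0.632), and Junb had 3.49 and 6.11 (−1.88, adjusted p = 0.0644). Homer1, a postsynaptic scaffold, had 4.99 and 6.72 (−1.43, adjusted p = 0.238). Over the AP-1 family 0 of 7 tested genes passed in limma, over the Egr and Nr4a genes 0 of 8 and over the CREB pathway 0 of 14, with 2, 1 and 1 at an unadjusted p under 0.05, a level that 13% of all genes reached.

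Chromatin genes were called in both directions. Kdm7a, a JmjC demethylase of the early list, had 1.68, 2.76 and 3.83 with Sorcs3 and 4.26, 4.98 and 5.46 without, with no overlap (limma difference −2.12, adjusted p = 0.0236). Kdm6b, a demethylase of histone H3, had medians of 4.99 and 6.53 and also separate ranges, but did not pass (−1.55, adjusted p = 0.104). Jarid2, a JmjC-domain partner of Polycomb repressive complex 2, was higher with Sorcs3, with medians of 4.99 and 1.88 and 44 against 24 nuclei above 1 (limma difference 3.09, adjusted p = 0.0226). With Jmjd1c, these made 1 higher and 2 lower of 24 chromatin genes tested, beside 0.497% and 0.54% of all genes. Tet3, a DNA demethylation enzyme, had 8.55 and 8.30 (adjusted p = 0.826).

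Of 44 synaptic adhesion genes, limma called Slitrk1 and Nrxn3 higher and Il1rap, an interleukin receptor protein with synaptic adhesion function, lower (medians 1.56 and 5.44; −3.60, adjusted p = 0.0148). Of 32 potassium channel genes it called Kcnc1 lower (−2.48, adjusted p = 0.0228). Of 25 sodium and calcium channel genes it called Itpr1, the inositol trisphosphate receptor, lower (−3.17, adjusted p = 0.0111, above 1 in 12 and 43 nuclei). Kcnc1 and Itpr1 were singled out after their values were seen. These adhesion and channel counts stand beside 0.497% of all genes called higher and 0.54% called lower in limma. No gene of the axon guidance (35 tested), heat shock (22) or nuclear respiratory chain (75) lists passed in limma, where 9, 4 and 8 had an unadjusted p under 0.05. Over all genes the share at that level was 13%.

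The other members of the VPS10P family passed the adjusted threshold neither in edgeR nor in limma. Sorcs1 was barely detected, above 1 in 13 positive and 10 negative nuclei (limma difference 0.28, adjusted p = 0.63). Sorcs2 (−0.47, adjusted p = 0.787) and Sort1, sortilin (−0.62, adjusted p = 0.629), were above 1 in under 30 nuclei of either set. Sorl1, the sorting receptor for amyloid precursor protein, had 1.34, 3.74 and 4.71 with Sorcs3 and 4.07, 5.33 and 7.43 without, lower in 6 of 6 mice (limma difference −2.12, adjusted p = 0.0644; edgeR adjusted p = 0.458; DESeq2 adjusted p = 0.000632).

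Nuclei of all mice were pooled and ordered by Sorcs3 level as a description. The median late mean was 3.18 in the 35 nuclei with no Sorcs3 count, 3.16 in the 30 with a count but at or below 1, 4.6 in the 11 above 1 and up to 4, and 4.87 in the 54 above 4. The early mean had medians of 4.02, 3.70, 2.99 and 3.00 in the same order. The largest change of both medians lay between the classes at or below 1 and those above it. The classes were cut on the same Sorcs3 values as the sets, so they are no test of that threshold. These classes pool mice in unequal shares, and the class with no count came from 5 of the 6 mice. No negative nucleus had a late mean above the positive median of 4.80, and 2 positive nuclei had one below the negative median of 3.17. For the early mean, 3 negative nuclei were below the positive median and 6 positive nuclei above the negative one.

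**Figure D4:**
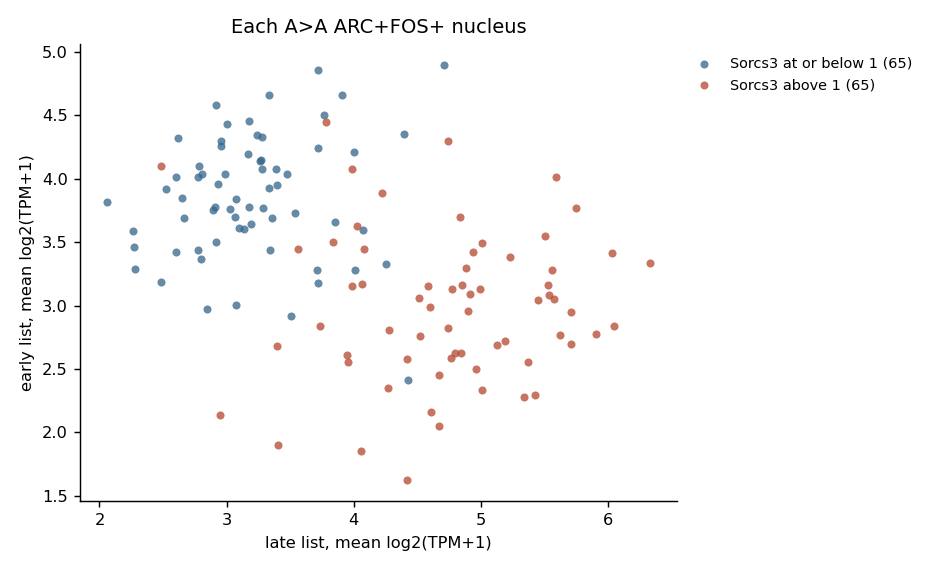
Mean log2(TPM+1) over the late list (x axis) against the early list (y axis) in each of the 130 A>A ARC+FOS+ nuclei, colored by Sorcs3 state. Positive nuclei lie toward high late and low early means (medians 4.80 and 2.99), negative nuclei toward low late and high early means (3.17 and 3.84).

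The same split was then applied to nuclei that had not been used to define it. In A>A ARC+FOS− nuclei (109 with and 20 without Sorcs3 in 6 mice, 4 of them shared with the comparison above) nuclei of 2 mouse numbers carried 2 date labels and were taken as 1 animal each. There edgeR called 0 of 12373 genes, with 1384 (11.2%) at an unadjusted p under 0.05. DESeq2 called 2772 and limma 0, with 859 (7.24%) at an unadjusted p under 0.05. The negative sums there held 2 to 5 nuclei each, so the design had little material on that side. The median edgeR log2 fold change over all genes was 1.03 there and the median limma difference −0.02, so edgeR values in these nuclei are read against that shift. The late list had a median of 1.06 in edgeR, close to that of all genes, and of 0.64 in limma. The early list had 1.19 in edgeR and −0.08 in limma, each close to the median of all genes in that fit. The mean over late genes was higher with Sorcs3 in 6 of 6 mice, by 0.69 ± 0.61 (SD), with the smallest at 0.0013 and the largest at 1.67. The early mean differed by −0.04 ± 0.17, positive in 2 of 6, and the sustained mean by 1.03 ± 0.79, positive in 6 of 6.

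Baiap2 in ARC+FOS− nuclei was 7.98 ± 0.73 with and 7.67 ± 0.79 without Sorcs3 (SD, n = 6; edgeR adjusted p = 0.855). The test of the difference between both Sorcs3 differences gave −2.05 with an adjusted p of 0.194 in edgeR and −2.62 with 0.318 in limma, so a dependence on FOS was not shown for it. The median of all genes in that test was −1.19 in edgeR and 0.05 in limma. Over all genes that test called 0 of 14725 in edgeR, with 1288 (8.75%) at an unadjusted p under 0.05, and 0 in limma with 908 (7.16%). Blnk was 4.12 ± 1.02 with and 2.81 ± 2.86 without Sorcs3 in ARC+FOS− nuclei, where the limma difference of 1.3 did not pass (adjusted p = 0.867).

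After a single exposure, the 4 h and 5 h nuclei gave 0 calls of 10500 in edgeR, with 631 (6.01%) at an unadjusted p under 0.05, 965 in DESeq2 and 0 in limma, with 1088 (8.98%) at an unadjusted p under 0.05. The study defined the late list from 4 h and 5 h nuclei of this series, so its direction in them is no independent evidence. Of 128 late genes tested there by limma, 29 were positive and 1 negative at an unadjusted p under 0.05. These counts stood beside 3.28% and 5.69% of all genes. The late list median was 1.10 against −0.11 over all genes. In edgeR the same medians were 1.67 and 0.69. In limma Scg2 differed by 2.54 and Nptxr by 1.86 there, without passing (adjusted p = 0.448 and 0.516).

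The A>C ARC+FOS+ nuclei allowed little. Only 6 of 48 had Sorcs3 above 1, in sums of 2 and 4 nuclei from 2 mice. EdgeR called 0 of 11808 genes, with 1104 (9.35%) at an unadjusted p under 0.05, DESeq2 514 and limma 18 (0.159%), with 11.5% of genes at an unadjusted p under 0.05. The test of whether the Sorcs3 difference itself differed between A>A and A>C called 2 of 17488 genes (0.0114%) in edgeR and 1 of 12453 (0.00803%) in limma, with 6.02% and 9.27% at an unadjusted p under 0.05, and its edgeR median over all genes was 1.47. These 3 genes are given in the closing section.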

How the data were processed

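Nuclei were profiled with Smart-seq2, which keeps no strand and no molecular identifiers. The authors trimmed reads with Solexa-QA++ and quantified genes with RSEM and Bowtie on mm10 with an Ensembl annotation. The deposited expected counts per gene, unnormalized, were rounded and summed per mouse and Sorcs3 state. The deposited log2 values, log2(TPM+1) per gene and nucleus, gave detection (above 1) and mouse means. Members and gene lists were chosen with earlier results of these data known.

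The edgeR (4.0.16) quasi-likelihood test used TMM, filterByExpr, mouse as a block and Benjamini-Hochberg adjustment at 0.05. DESeq2 (1.42.0) used the same sums. limma (3.58.1) used mouse means of genes above 1 in at least 10% of nuclei, with the mouse block and a mean trend. The fits were also run on simulated data in which all genes shared the same spread, and no result given here relies on that run. Both sums of a mouse come from one animal, which pairs them. The correlation of deviations was 0.0127 to 0.0807 within mice and −0.0677 to 0.0478 between different mice, and these ranges overlapped. The study tested single nuclei, which are not replicates, so its test was not used. With mouse as a block, p-values measure how the difference within mouse varied between mice, which includes the sampling of nuclei.

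Named genes were those called by edgeR with 1 direction in all mice, filled to 8 per direction by smallest p; genes the study names; the sortilin family; and up to 3 per gene list. Gm8407 was in the count table but not in the log2 table used here and was left out of that ranking. A share of counts on mitochondrially encoded genes was planned and could not be computed, since no such gene is among the symbols used here. Depth per nucleus, 187715 to 4424338 counts, covers counting error only. Genes with near-identical copies or antisense partners are uncertain. Some genes of the GABA receptor list are not reported here.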

Additional observations from a re-analysis of the deposited data

Results flagged for a closer look

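In 9 of 107 values tested, 1 of the 6 mice stood apart from the others by Dixon's criterion, and chance alone gives about 5%. Each value is the difference of mean log2(TPM+1), with minus without Sorcs3, in that mouse. Baiap2 was −4.20 in mouse 24 against −2.30 to −1.24 in the others, in the shared direction. Zfp948 was −5.44 in mouse 16 against −3.34 to −2.17, Dusp8, a phosphatase of MAP kinases, −3.86 in mouse 27 against −1.30 to −0.82, and Tnik −4.78 in mouse 26 against −2.49 to −1.61. Il1rap was −1.49 in mouse 26 and Fibcd1, a CA1 marker, −0.28 in mouse 15, both closer to 0 than the other mice. The direction differed from the other 5 mice in 3 genes. The nuclear receptor gene Nr4a3 was −3.58 in mouse 15 against 0.85 to 2.20, Jun 0.90 in mouse 24 against −3.06 to −2.18, and Tet3 −1.56 in mouse 26 against 0.09 to 0.96.

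The Sorcs3 difference itself differed between A>A and A>C ARC+FOS+ nuclei for 3 genes, all resting on A>C sums of 2 and 4 positive nuclei, in a test whose edgeR median over all genes was 1.47. For Atp6v0e2, a subunit of the vacuolar proton pump, the edgeR difference was 7.66 (adjusted p = 0.0368), with mouse means of 3.78 to 7.58 with and 4.20 to 6.31 without Sorcs3 in A>A, and 0.88 to 1.52 with and 6.60 to 7.16 without in A>C. For the protease gene Prss23 it was 21.37 (adjusted p = 0.0368), a fitted value that rests on A>C nuclei with Sorcs3 listed at 0. For the splicing gene Zrsr1 the limma difference was −2.10 (adjusted p = 0.0351), with 2.29 to 2.31 in A>C nuclei with Sorcs3 and at most 0.24 in the other sets.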

How the results depend on the processing

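The edgeR count of 1 gene in A>A ARC+FOS+ nuclei became 1368 with DESeq2 and 121 with limma. It was 0 with DESeq2 size factors, with Sorcs3 above 2.5, with above 4 against no count, with any count against none, with at least 5 nuclei per sum, with the median number of genes as covariate and within each of the 3 date labels. It was 2 without the low-count filter or without the minimum of genes, 4 after thinning to 100000 counts, 9 with no replicate block, and 0 to 5 with 1 mouse left out. The limma count of 121 became 0 with any Sorcs3 count against none or above 4 against no count, 34 after matching on genes above 1 and 0 to 92 with 1 mouse left out. These limma alternatives were chosen after seeing the data. ARC+FOS− nuclei gave 2772 with DESeq2 and 63 with no replicate block. The 4 h and 5 h nuclei gave 965 with DESeq2, 1 without the filter, 1 with no replicate block and 0 to 1 with 1 mouse left out. A>C gave 514 with DESeq2 and 18 with limma. The A>A against ARC+FOS− difference ranged from 0 to 1 with 1 mouse left out. The A>A against A>C difference gave 0 without the filter or with 1 mouse left out, and 1 with limma. The gene number difference was −102.7 with any Sorcs3 count against none. Without the minimum of genes the differences were 556.6 in gene number, 37820 in total counts, 37210 in aligned reads and 1.51 in percent aligned. The cause of these changes was not tested. Leaving out a mouse was not run for A>C, where 1 mouse would remain. The minimum of 100000 aligned reads left out no nucleus.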
